A study of Mus musculus with 18 samples.

Results

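The genes for 7 transcription factors of the mouse oocyte, Figla, Nobox, Lhx8, Sohlh1, Sohlh2, Tbpl2 and Taf4b, were followed in whole ovaries with and without Elavl2. Members were the non-control probes that carry one of the 7 gene names in the scanner files. They came to 8 of 41174 probes, and to 6 of the 7 genes: Lhx8 and Taf4b had 2 probes each, Figla, Nobox, Sohlh2 and Tbpl2 had 1 each, and Sohlh1 had none, also not under another symbol or accession. Sohlh1 was therefore not analysed here. The samples were female (XX) mouse gonads, either wild type or knockout for Elavl2, which encodes an ELAV-like RNA-binding protein, collected at 2 embryonic stages given by the labels in days of gestation, E15.5 and E17.5, and at birth (P0). The labels name no strain, no allele design, no Cre driver and no treatment, and they call the sample type mixed. There were 3 samples for every stage in either genotype, giving 6 groups, and each was hybridised to a 1-colour Agilent array. Whether replicates are separate animals is not stated in the labels, and every p-value reflects the variation among these samples, which may be technical.

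FIGLA is a basic helix-loop-helix (bHLH) factor that binds E-boxes together with E proteins and is needed for primordial follicles and for the zona pellucida genes. SOHLH1 and SOHLH2 are bHLH factors of the germ line. NOBOX and LHX8 are homeodomain factors of the early oocyte, and mouse oocytes that lack either of them are lost around or soon after birth. TBPL2 (also TBP2 or TRF3) is a paralogue of the TATA-binding protein that takes its place in growing oocytes, and TAF4B is a gonad-enriched form of a subunit of TFIID, the complex that carries the TATA-binding protein to promoters.

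The sequences upstream of 4 of these genes are shown because Figla, Nobox and Lhx8 rose together between stages while Tbpl2 was the member that separated the genotypes at birth. Each is the 250 bases before the start of the gene in RefSeq, build GRCm38.p6, read 5′ to 3′ on the strand of the gene, with every E-box core (CANNTG, a palindrome, so that both strands are covered) in capitals. Figla lies at chr6:86016941-86017190 on the plus strand, Nobox at chr6:43309555-43309804, Tbpl2 at chr2:24096596-24096845 and Lhx8 at chr3:154330561-154330810, the last 3 on the minus strand.
Figla: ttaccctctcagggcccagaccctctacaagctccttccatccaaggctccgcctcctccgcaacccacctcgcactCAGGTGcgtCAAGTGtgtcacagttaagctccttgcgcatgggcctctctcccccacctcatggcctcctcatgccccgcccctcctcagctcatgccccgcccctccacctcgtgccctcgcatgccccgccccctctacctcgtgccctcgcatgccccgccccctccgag
Nobox: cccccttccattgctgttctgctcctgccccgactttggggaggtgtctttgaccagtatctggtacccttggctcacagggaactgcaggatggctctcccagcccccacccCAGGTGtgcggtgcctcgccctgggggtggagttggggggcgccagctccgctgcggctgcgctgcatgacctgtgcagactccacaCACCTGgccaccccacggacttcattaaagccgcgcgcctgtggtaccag
Tbpl2: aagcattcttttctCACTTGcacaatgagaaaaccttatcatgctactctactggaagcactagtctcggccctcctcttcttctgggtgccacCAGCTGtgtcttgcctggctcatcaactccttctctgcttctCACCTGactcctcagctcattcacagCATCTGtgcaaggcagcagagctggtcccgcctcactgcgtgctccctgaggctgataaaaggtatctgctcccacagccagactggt
Lhx8: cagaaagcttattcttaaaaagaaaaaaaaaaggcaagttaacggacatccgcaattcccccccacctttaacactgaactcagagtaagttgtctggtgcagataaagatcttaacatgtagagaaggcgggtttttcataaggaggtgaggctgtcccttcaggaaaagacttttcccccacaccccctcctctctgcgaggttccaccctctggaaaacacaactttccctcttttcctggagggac

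In the 300-base window that adds the first 50 bases of the gene, Tbpl2 held 5 E-box cores, Figla 4, Nobox 2 and Lhx8 none. Sohlh1 held 5 and Sohlh2 held 1. At least 1 core was found in 72.3% of all 32851 windows of that length, at least 2 in 39.6%, at least 4 in 6.49% and at least 5 in 2.1%. The homeodomain letters TAATTG and TAATTA, searched on both strands, were in none of the 6 member windows, and in 8.0% and 5.29% of all windows. These matches describe the letters of the windows only.

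The arrays were read in 2 runs on 7 slides. Run A held all E15.5 arrays and replicate 3 of both E17.5 groups, and run B held the others. At E15.5 and at P0 the slide of the 3 wild type arrays carried none from knockout ovaries, so slide and genotype cannot be told apart there. Between 63.1% and 75.7% of probes were well above background on an array, and replicate arrays correlated with r from 0.965 to 0.9948 across genes. Levels are log2 signals relative to the 75th percentile of the array, and changes are differences of such levels from limma fitted over all 19309 genes with the run as a term, with calls made where the p adjusted by Benjamini-Hochberg was under 0.05. Errors after ± are standard errors unless SD is written. Elavl2, the targeted gene, had 2 probes on chromosome 4. With the brighter, used for the gene, it fell by 1.36 ± 0.12 at P0 (adjusted p = 9.03e-06) and by 0.87 ± 0.12 at E17.5 (adjusted p = 0.00448), and changed by -0.11 ± 0.12 at E15.5 (adjusted p = 0.75). The dimmer gave -1.63 ± 0.16 at P0 (adjusted p = 1.57e-05), -0.97 ± 0.16 at E17.5 (adjusted p = 0.00641) and -0.45 ± 0.16 at E15.5 (adjusted p = 0.173). The Elavl2 transcript was thus still measured in the arrays labelled knockout, and the labels do not say which part of the gene was deleted. In whole ovaries, fewer oocytes and less RNA per oocyte cannot be told apart.

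**Figure D1:**
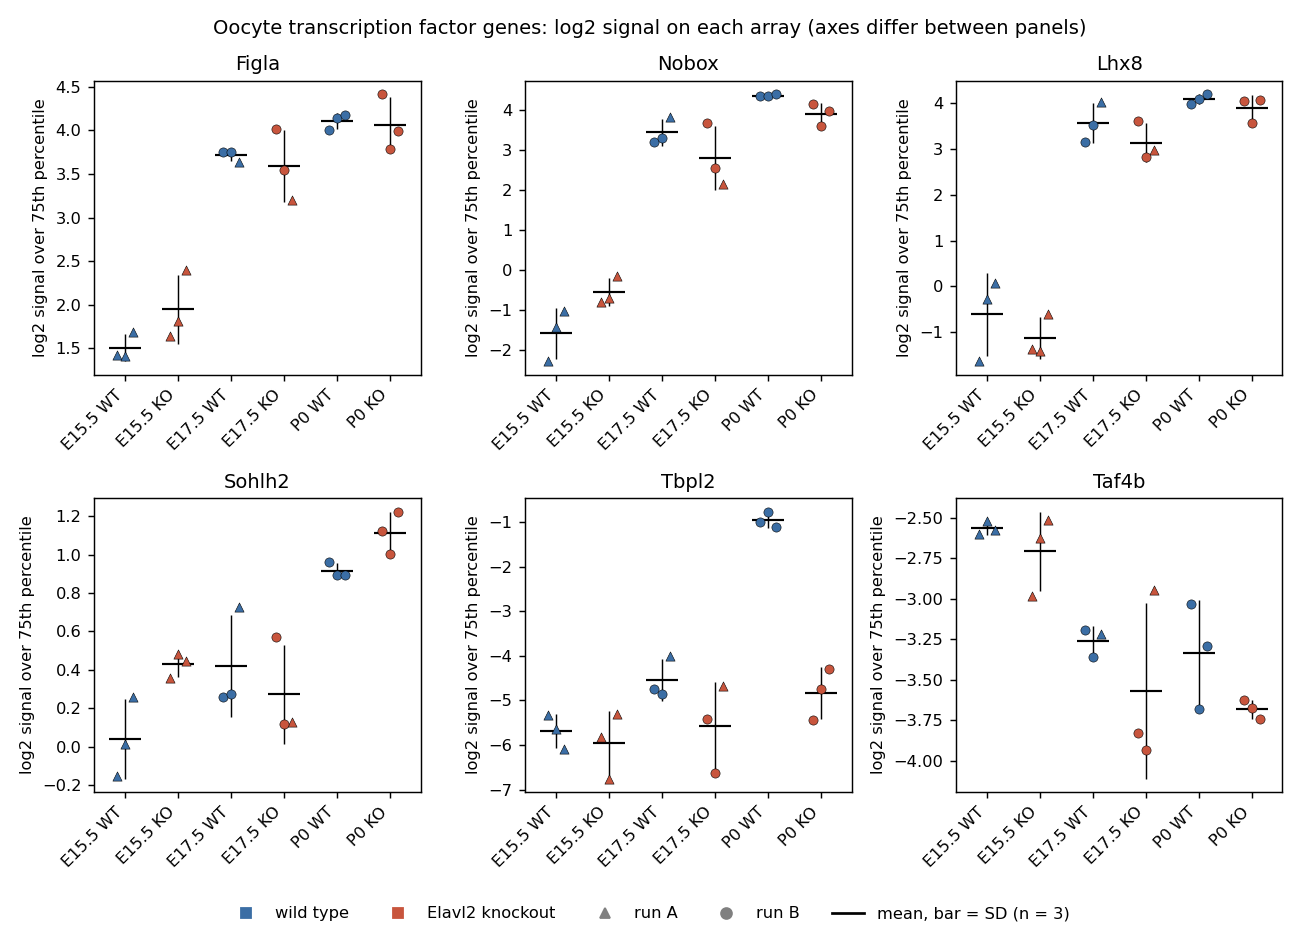
Log2 signal over the 75th percentile of the array (vertical axis, its range differing between panels) for the 6 measured genes on each of the 18 arrays, by stage and genotype, with the group mean and SD (n = 3) and the run as the marker shape. Tbpl2 is the gene whose P0 groups lie farthest apart: -1.11 to -0.77 in wild type against -5.45 to -4.30 in knockout.

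The bHLH gene Figla rose between E15.5 and E17.5 in both genotypes and did not differ between them by the test at any stage. Its probe lies at chr6:85970895-85970954 (mm9). In wild type ovaries the log2 signal was 1.42, 1.41 and 1.68 at E15.5, 3.75, 3.75 and 3.64 at E17.5, and 4.01, 4.14 and 4.18 at P0. In knockout ovaries it was 1.64, 1.81 and 2.40 at E15.5, 4.02, 3.55 and 3.20 at E17.5, and 4.41, 3.79 and 3.99 at P0. The E15.5 arrays were below every later array, and the genotypes overlapped at each stage. From E15.5 to E17.5 Figla rose by 1.97 ± 0.25 in wild type (adjusted p = 0.000196) and by 1.40 ± 0.25 in knockout (adjusted p = 0.00175). Knockout against wild type, the change was -0.05 ± 0.20 at P0 (adjusted p = 0.874, 95% interval -0.49 to 0.39), -0.13 ± 0.20 at E17.5 (adjusted p = 0.754) and 0.44 ± 0.20 at E15.5 (adjusted p = 0.337).

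Sohlh2, the other measured bHLH gene of the germ line, had a flatter course and was highest at birth. Its probe lies at chr3:55013524-55013583 (mm9). The wild type values were -0.15, 0.01 and 0.26 at E15.5, 0.26, 0.27 and 0.73 at E17.5, and 0.96, 0.89 and 0.89 at P0. The knockout values were 0.36, 0.48 and 0.45 at E15.5, 0.57, 0.12 and 0.13 at E17.5, and 1.12, 1.00 and 1.22 at P0. All P0 arrays lay above all earlier ones, and the P0 knockout arrays all lay above the P0 wild type arrays. The wild type change from E15.5 to E17.5 was 0.46 ± 0.18 (adjusted p = 0.0746). It passed without E15.5 wild type replicate 3 (0.57, adjusted p = 0.0464) and without E17.5 knockout replicate 1 (0.56, adjusted p = 0.0119) or 3 (0.69, adjusted p = 0.0146). From E17.5 to P0 Sohlh2 rose by 0.54 ± 0.16 in wild type (adjusted p = 0.014) and by 0.88 ± 0.16 in knockout (adjusted p = 0.000811). The wild type call was lost without E17.5 wild type replicate 1 (0.45, adjusted p = 0.0789) or replicate 2 (0.46, adjusted p = 0.0776), and when arrays were scaled by their median (0.38, adjusted p = 0.0915). The knockout arrays lay above all wild type arrays at E15.5 as well, a separation found in that direction for 13% of all genes at E15.5 and for 23% at P0. The change between genotypes did not pass the test at E15.5 (0.39 ± 0.15, adjusted p = 0.229), at P0 (0.20 ± 0.15, adjusted p = 0.312) or at E17.5 (-0.15 ± 0.15, adjusted p = 0.586).

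Of the homeobox genes, Nobox showed the largest rise of any member in wild type. Its probe lies at chr6:43253726-43253785 (mm9). Wild type values were -2.27, -1.42 and -1.02 at E15.5, 3.19, 3.30 and 3.83 at E17.5, and 4.34, 4.34 and 4.39 at P0. Knockout values were -0.79, -0.69 and -0.14 at E15.5, 3.68, 2.56 and 2.15 at E17.5, and 4.14, 3.59 and 3.98 at P0. The knockout arrays were above all wild type arrays at E15.5, overlapped them at E17.5 and were below all of them at P0. From E15.5 to E17.5 Nobox rose 29.6-fold in wild type (log2 4.89 ± 0.46, adjusted p = 2.04e-05) and 9.27-fold in knockout (3.21 ± 0.46, adjusted p = 0.000366).

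The difference between these rises of Nobox, -1.68 ± 0.53, did not pass the test (adjusted p = 0.219), but passed without E17.5 knockout replicate 1 (-2.14, adjusted p = 0.0416). Nor did the change between genotypes pass at any stage: it was -0.46 ± 0.37 at P0 (adjusted p = 0.361), -0.64 ± 0.37 at E17.5 (adjusted p = 0.335) and 1.03 ± 0.37 at E15.5 (adjusted p = 0.208). From E17.5 to P0 the change of Nobox was 0.85 in wild type (adjusted p = 0.0988) and 1.04 in knockout (adjusted p = 0.0554). The first passed without E17.5 wild type replicate 3 (1.11, adjusted p = 0.029), knockout replicate 3 (the same values) or knockout replicate 1 (0.97, adjusted p = 0.027) of that stage. The second passed without E17.5 knockout replicate 1 (1.62, adjusted p = 0.00549), E15.5 wild type replicate 1 (1.04, adjusted p = 0.0366) or 3 (1.04, adjusted p = 0.0488), without the run term (1.10, adjusted p = 0.0289), with another background correction (normexp, followed by quantile normalization; 0.91, adjusted p = 0.0486) and with a stricter filter that kept probes well above background on all arrays (1.04, adjusted p = 0.0414). Groups without overlap were found for 13% of all genes at E15.5 in the higher direction and for 25.3% at P0 in the lower direction.

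Lhx8 rose between E15.5 and E17.5 in both genotypes. Its brighter probe lies at chr3:153969377-153969436 and the dimmer at chr3:153969855-153969914 (mm9). With the brighter probe, wild type values were -1.63, -0.27 and 0.08 at E15.5, 3.13, 3.52 and 4.02 at E17.5, and 3.96, 4.08 and 4.18 at P0. Knockout values were -1.37, -1.40 and -0.60 at E15.5, 3.61, 2.81 and 2.97 at E17.5, and 4.04, 3.57 and 4.05 at P0. All E15.5 arrays lay far below the others, and the genotypes overlapped at every stage. The rise from E15.5 to E17.5 was 4.31 ± 0.48 in wild type (adjusted p = 7.7e-05) and 4.40 ± 0.48 in knockout (adjusted p = 4.61e-05). The difference between these rises was 0.09 ± 0.55 (adjusted p = 0.969, 95% interval -1.11 to 1.28). The dimmer probe gave 4.45 ± 0.45 and 4.17 ± 0.45. With the brighter probe the knockout change from E17.5 to P0 was 0.83 ± 0.41 (adjusted p = 0.134). It passed without E15.5 wild type replicate 1 (0.83, adjusted p = 0.044) and with only the stages compared (0.83, adjusted p = 0.0432). At P0 the change between genotypes was -0.19 ± 0.39 (adjusted p = 0.737, 95% interval -1.03 to 0.66).

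Tbpl2 was the member that differed between genotypes at birth. Its probe spans 11085 bases at chr2:23931586-23942670 (mm9), so that its 60 bases are split over an intron. The wild type signal was -5.33, -5.65 and -6.09 at E15.5, -4.75, -4.86 and -4.01 at E17.5, and -1.002, -0.77 and -1.11 at P0. The knockout signal was -5.81, -6.75 and -5.31 at E15.5, -5.43, -6.62 and -4.68 at E17.5, and -5.45, -4.75 and -4.30 at P0. The 3 wild type arrays at P0 stood above the other 15 arrays. The probe was well above background on all 3 wild type arrays at E17.5 and P0 and on 2 at E15.5, but in knockout on 2 arrays at P0 and on 1 at each earlier stage, so the knockout levels are close to background. It therefore passed the filter on dim probes only through the wild type groups of E17.5 and P0. Its entry into the main test is thus not free of that filter. A fit with no filter on dim probes also called it lower at P0 (-3.87, adjusted p = 4.27e-05).

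In wild type ovaries Tbpl2 rose by 1.86 ± 0.48 from E15.5 to E17.5 (adjusted p = 0.0138) and by 3.94 ± 0.41, or 15.3-fold, from E17.5 to P0 (adjusted p = 2.09e-05). The earlier rise was not called without the run term (1.15, adjusted p = 0.0841), without E17.5 wild type replicate 3 (2.23, adjusted p = 0.0997) or without E17.5 knockout replicate 3 (1.68, adjusted p = 0.0527). In knockout ovaries the corresponding changes were 1.10 ± 0.48 (adjusted p = 0.116) and 1.10 ± 0.41 (adjusted p = 0.0528). The earlier one passed without E15.5 knockout replicate 3 (1.42, adjusted p = 0.0436). The later one passed without E15.5 knockout replicate 2 (1.10, adjusted p = 0.0297) or 3 (1.10, adjusted p = 0.0386), without E17.5 knockout replicate 1 (1.46, adjusted p = 0.0315) and without P0 knockout replicate 1 (1.41, adjusted p = 0.0247). It also passed with quantile normalization (1.08, adjusted p = 0.0209), median scaling (1.10, adjusted p = 0.0435), trended moderation (1.10, adjusted p = 0.0443), array weights (1.59, adjusted p = 0.027), only the stages compared (1.10, adjusted p = 0.044) and normexp, with a smaller change (0.26, adjusted p = 0.0384).

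At P0 Tbpl2 was 14.6-fold lower in knockout than in wild type, a log2 change of -3.87 ± 0.39 (95% interval -4.72 to -3.03, adjusted p = 2.06e-05). The size is approximate, since 1 of the 3 knockout arrays, replicate 1, was not well above background; without it the change was -3.56 (adjusted p = 0.00013). With normexp and quantile normalization it was -2.10. Between the stages E17.5 and P0 the change between genotypes shifted by -2.84 ± 0.55 (adjusted p = 0.00807; -1.87 with normexp), with 2 of the 3 E17.5 knockout arrays not well above background. Since wild type was also dim at E17.5, a much larger fall could not have been measured at that stage. The shift passed in every fit tried but that with array weights (-2.41, adjusted p = 0.0541) and the stricter filter, which leaves the gene out. Against E17.5 wild type, P0 knockout called 1 member, Sohlh2 (0.73 ± 0.16, adjusted p = 0.00294), beside 35.2% of all genes, and Tbpl2 differed by 0.07 ± 0.41 (adjusted p = 0.917, 95% interval -0.83 to 0.97). One slide held P0 knockout replicate 3, at -4.30, together with E17.5 wild type replicates 1 and 2, at -4.75 and -4.86.

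Taf4b was dim throughout, and its 2 probes disagreed. The brighter probe, used for the gene, spans chr18:14942401-14955438 and the other lies at chr18:15058722-15058781 (mm9). With the brighter probe the wild type means over the course of the 3 stages were -2.57 ± 0.04, -3.26 ± 0.09 and -3.33 ± 0.33 (SD, n = 3), and the knockout means were -2.71 ± 0.24, -3.57 ± 0.54 and -3.68 ± 0.06 (SD, n = 3). No comparison of Taf4b passed with it, although 2 changes between E15.5 and E17.5 passed without E17.5 knockout replicate 3 (-0.65, adjusted p = 0.0456 in wild type and -1.11, adjusted p = 0.0229 in knockout) and without the run term (-0.69, adjusted p = 0.0306 and -0.86, adjusted p = 0.0098). The one in knockout also passed with quantile normalization (-0.71, adjusted p = 0.0367), median scaling (-0.71, adjusted p = 0.0357) and normexp (-0.36, adjusted p = 0.0449). The other probe fell from E17.5 to P0 by 1.21 ± 0.21 in wild type (adjusted p = 0.000698) and by 1.18 ± 0.21 in knockout (adjusted p = 0.000874). Knockout against wild type it gave -0.58 ± 0.20 at E17.5 (adjusted p = 0.113) and -0.55 ± 0.20 at P0 (adjusted p = 0.0501). The mean of both probes gave -0.45 at P0 (adjusted p = 0.0443).

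**Figure D2:**
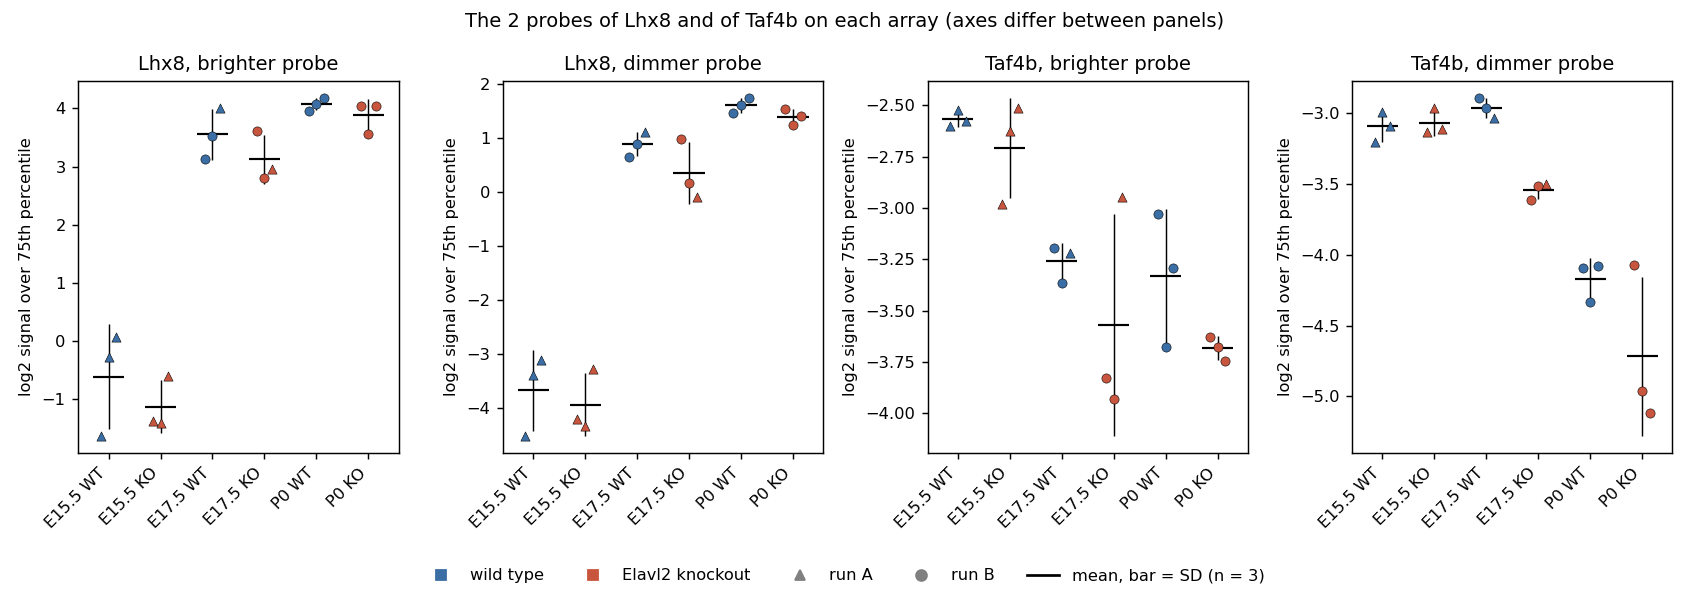
Log2 signal over the 75th percentile of the array (vertical axis, its range differing between panels) for both probes of Lhx8 and of Taf4b on each array, with group mean and SD (n = 3). The Lhx8 probes have the same course, whereas in wild type ovaries from E17.5 to P0 the dimmer Taf4b probe changes by -1.21 and the brighter by 0.09.

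Counted over the 6 measured genes, 4 rose from E15.5 to E17.5 in wild type (Figla, Nobox, Lhx8 and Tbpl2), where 26.4% of all genes were called and 15.3% were called higher. In knockout 3 rose (Figla, Nobox and Lhx8), beside 21.7% called and 11.7% called higher. From E17.5 to P0, 2 rose in wild type (Sohlh2 and Tbpl2), beside 43.3% called and 22.1% called higher, and 1 in knockout (Sohlh2), beside 37.2% called and 18.2% called higher. No member fell in these comparisons with the probe used for the gene. The E15.5 arrays were all of run A, and the changes from E15.5 to E17.5 within that run, with 1 E17.5 array a genotype, were 2.13 in wild type and 1.25 in knockout for Figla, 5.40 and 2.70 for Nobox, and 4.62 and 4.09 for Lhx8.

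**Figure D3:**
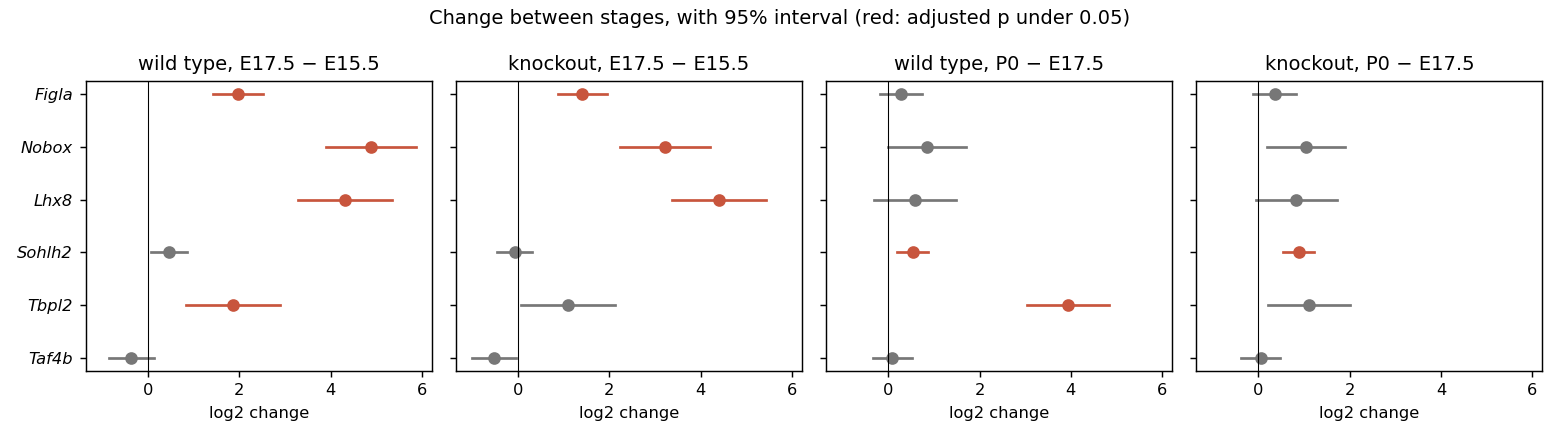
Log2 change between neighbouring stages (horizontal axis, with its 95% interval) for each of the 6 genes, in wild type and in knockout; red marks an adjusted p under 0.05. Nobox and Lhx8 have the largest changes from E15.5 to E17.5, 3.21 to 4.89, and Tbpl2 in wild type the largest from E17.5 to P0, 3.94.

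Knockout against wild type, 0 of 6 members were called at E15.5, where 1.62% of all genes were, and 0 of 6 at E17.5, where 4.15% were. The shift between E15.5 and E17.5 was called for 0 members, beside 0.306% of genes, and that between E17.5 and P0 for 1, Tbpl2, beside 10.4%. At an unadjusted p under 0.05 in limma, the members different between genotypes were Figla, Nobox and Sohlh2 at E15.5, all higher, and Tbpl2 at E17.5, lower. By that threshold 8.58% of all genes were higher at E15.5 and 10.2% were lower at E17.5. At P0, 1 of 6 was called, Tbpl2, beside 34.4% of all genes called and 16.1% called lower. The median change of the members was -0.27 at P0, against -0.00 for all genes.

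The E17.5 values differed between the runs. Within run A, with 1 array a genotype, knockout minus wild type was -0.44 for Figla, -1.67 for Nobox, -1.05 for Lhx8 and -0.60 for Sohlh2. Within run B, with 2 arrays a genotype, it was 0.03, -0.13, -0.12 and 0.08. For Tbpl2 the values in runs A and B were -0.66 and -1.22. For Taf4b they were 0.27 and -0.60 with the probe used for the gene, and -0.47 and -0.63 with the other. In run B the wild type and knockout arrays of E17.5 were on different slides, so slide and genotype cannot be told apart there. The E17.5 knockout array of run A also had the highest summed signal of 10 red cell genes, 439 times the 75th percentile, whereas the other knockout arrays had 204.9 and 256 and the wild type arrays 136 to 207. The summed signal of the 16 germ cell markers in that array was 97.7, the lowest of the stage, against 155.5 in the wild type array of run A, and it was 104.8 and 142 in the other knockout arrays and 123 and 127 in the other wild type arrays. At E17.5 the change was below 0 for 14 of the 16 markers, with a median of -0.39, and for 6 of 6 members, with a median of -0.37, against 0.05 for all genes. Of the markers, Rnf17 fell by 0.72 ± 0.18 (adjusted p = 0.0439), Tex101 rose by 0.53 ± 0.13 (adjusted p = 0.0339) and 14 did not pass. The part of red cell RNA and of germ cell number in these values was not tested.

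**Figure D4:**
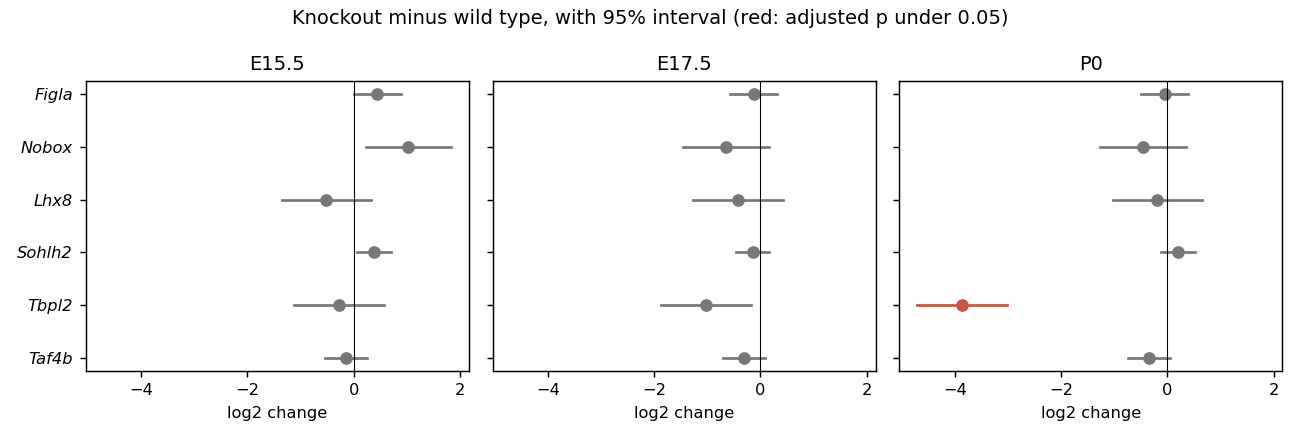
Log2 change, knockout minus wild type (horizontal axis, with its 95% interval), for the 6 genes at E15.5, E17.5 and P0; red marks an adjusted p under 0.05. The fall of Tbpl2 at P0, by 3.87, is the one red value among the 18.

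Genes that earlier work reported to depend on these factors fell widely at P0 while most of the factor genes did not pass the test. The list held zona pellucida genes, growth factor genes and other oocyte genes, and 15 of its 16 genes were measured. At P0, 12 fell, 0 rose and 3 did not pass (Mos, Kit and Fgf8), beside 16.1% of all genes called lower. Of the 12, Oosp1 and Bmp15 passed the filter on dim probes only through P0 wild type. For these genes the filter itself favoured a call of lower in P0 knockout. The median change of the 15 genes was -3.73, against -0.00 for all genes. At E17.5, where 2.82% of all genes were called lower and 1.33% higher, 3 fell (Padi6, Nlrp14 and Gdf9), Fgf8 rose by 0.74 ± 0.18 (adjusted p = 0.0424) and 11 did not pass; at E15.5 none was called.

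Zp3, a zona pellucida gene, fell from 2.94 ± 0.13 (SD, n = 3) in wild type to -2.38 ± 0.55 (SD, n = 3) in knockout at P0, a change of -5.32 ± 0.42 (adjusted p = 3.34e-06). Zar1, a maternal-effect gene, fell by 4.80 ± 0.36 (adjusted p = 2.51e-06). Gdf9, an oocyte growth factor gene, fell by 1.27 ± 0.27 at E17.5 (adjusted p = 0.0217) and by 3.30 ± 0.27 at P0 (adjusted p = 4.45e-06). Oosp1, an oocyte-secreted protein gene, was not well above background on any knockout array and was at least 9.06-fold lower (adjusted p = 1.23e-08). On the same basis Bmp15, another oocyte growth factor gene, was at least 6.87-fold lower (adjusted p = 0.00046). These bounds take as the floor the dimmest single spot well above background on each array. A floor from the averaged signal of probes with any such spot, which was computed first, gave 34.2-fold and 14.2-fold.

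From E17.5 to P0, 14 of these 15 genes rose in wild type, beside 22.1% of all genes called higher, with a median change of 4.22. In knockout 9 rose, beside 18.2% of all genes called higher, with a median of 1.56. The median change of all genes was 0.01 in wild type and -0.01 in knockout. Oosp1 and Bmp15, which passed the filter only through P0 wild type, are among the 15. At least 1 E-box core was in the promoter windows of all 8 genes of the list that have one in the table, beside 72.3% of all windows. The homeodomain letters TAATTG were in 1 of the 8 and TAATTA in 1, beside 8.0% and 5.29% of all windows.

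**Figure D5:**
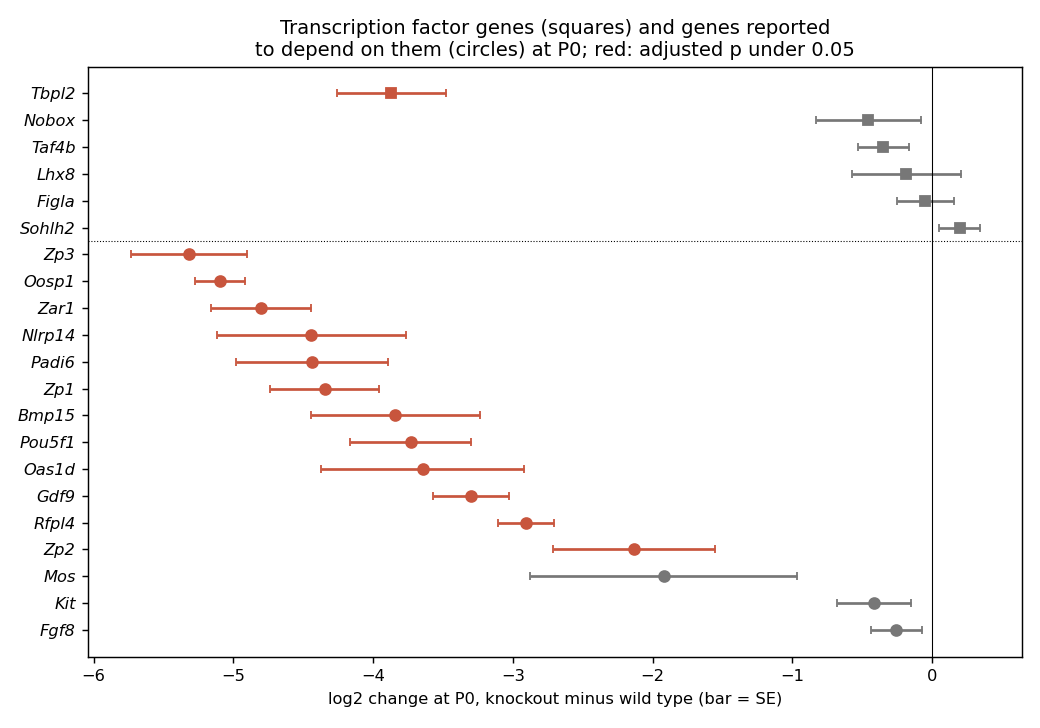
Log2 change at P0, knockout minus wild type (horizontal axis, bars are standard errors), for the 6 transcription factor genes (squares) and the 15 measured genes reported to depend on them (circles); red marks an adjusted p under 0.05. Tbpl2, at -3.87, lies among the dependent genes, and the other 5 factor genes lie between -0.46 and 0.20.

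The genes whose products act with these factors are read beside the 18.3% of all genes called higher and the 16.1% called lower at P0. Of 8 genes for bHLH partners (E proteins) and LIM cofactors, 2 rose at P0, Ssbp3 by 0.54 ± 0.07 (adjusted p = 0.000268, with 1 wild type spot dropped as an outlier) and Ldb2 by 0.24 ± 0.08 (adjusted p = 0.0344), and none fell. At E15.5 Tcf4, an E protein gene, fell by 0.34 ± 0.08 (adjusted p = 0.0495), a call lost in most other fits, among them the one with median scaling (adjusted p = 0.118). Of 5 genes of the TATA-binding protein family and TFIIA, Gtf2a1 rose by 0.32 ± 0.10 (adjusted p = 0.0274). Of 15 genes for TFIID subunits, 6 rose and 1 fell at P0. Taf7l, a germ cell form of TAF7, rose by 1.44 ± 0.18 (adjusted p = 9.87e-05) and Taf9b by 1.08 ± 0.17 (adjusted p = 0.000427), while Taf3 fell by 0.49 ± 0.09 (adjusted p = 0.0017). The calls at the earlier stages were all lower in knockout. Of all genes, 1.62% were called in either direction at E15.5, and 2.82% were called lower and 1.33% higher at E17.5. Taf2 fell by 0.64 ± 0.12 at E15.5 (adjusted p = 0.0235) and by 0.65 ± 0.12 at E17.5 (adjusted p = 0.0132), and Taf7 fell by 0.74 ± 0.15 at E17.5 (adjusted p = 0.0196).

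Germ cell markers were measured in every group. At P0, 3 of 16 rose and none fell: Tex101 by 1.48 ± 0.13 (adjusted p = 5.78e-06), Dazl by 0.86 ± 0.13 (adjusted p = 0.00035) and Dnd1 by 0.59 ± 0.15 (adjusted p = 0.0102). That count is near the 18.3% of all genes called higher. The change was below 0 for 9 of the 16 markers and above 0 for 7, with a median of -0.16. The summed marker signal was 186 to 190 times the 75th percentile in wild type and 171 to 204.8 in knockout, so the groups overlapped. At P0, 6 of 11 pregranulosa, 8 of 9 endothelial, 3 of 11 stroma and 3 of 11 macrophage markers rose, and none of these 4 lists had a gene that fell. The count for endothelial markers lies farthest above the 18.3% of all genes, and those for stroma and macrophage markers lie nearer to it. The summed endothelial signal was 13.3 to 15.9 in wild type and 19.7 to 22.4 in knockout, and the pregranulosa signal 66.1 to 79.7 and 86.2 to 101.9. The part of these cell types in the fall of Tbpl2 was not tested.

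Over the 18 arrays Nobox was the gene most like Figla (Pearson r = 0.988 of 15321 genes with a RefSeq symbol), followed by Pramel13 and Dppa3. Pramel13 was most like Nobox (r = 0.997), and Vil1 most like Lhx8 (r = 0.995). Nlrp4a was most like Tbpl2 (r = 0.967), Txnrd3 most like Sohlh2 (r = 0.958) and Gata5 most like Taf4b (r = 0.935). Between members, r was 0.962 for Figla and Lhx8, 0.974 for Nobox and Lhx8, and 0.552 for Figla and Tbpl2. All of these points share the same arrays and stages, and the values are descriptions.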

How the data were processed

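Gene expression was measured on 18 Agilent mouse arrays of design 014868. The authors deposited scanner files whose intensity is already background-subtracted. They came from Agilent Feature Extraction: the file headers name version 10.7.3.1, whereas 9.5 stands in the submitters' processing notes. The deposited series matrix holds log2 values, which differ from the scanner log2 intensity by a constant on each array, with medians from 6.17 to 6.46 and genes not centred. It served as an alternative.

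Control spots and spots marked as outliers (51 to 109 on an array) were removed; none was saturated. Levels are log2 intensity less the 75th percentile of its array. Probes entered if all 3 arrays of some group had them well above background (29215 probes), and the probe with the highest mean stood for a gene. A probe with several spots counted as above background when any spot was. A rule that asks for all its spots was added after seeing the data. RefSeq (GRCm38.p6) named 28223 probes, 1471 with a changed name, and 12951 kept the file's name.

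Tests used limma 3.58.1 (lmFit, eBayes; R 4.3.3), in 1 fit over 18 arrays with the 6 groups and the run, leaving 11 residual degrees of freedom. The run was read from the form of the file names, which matched the scan day. The members and the lists were chosen with earlier results of these data known. Named were every member, Elavl2, up to 4 genes a list with the smallest adjusted p between genotypes, and the 3 genes most like each member; the text prints part of these. Gdf9, Bmp15, Mos, Kit, Fgf8, Padi6, Nlrp14, Taf2 and Taf7 fell outside that rule and were chosen after their values were seen. For the lower bounds the floor was redefined after the values were seen, with an earlier analysis of the same files at hand, because the first floor averaged in spots that were not above background; both results are given.

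Same-numbered arrays were checked for pairing by the correlation of their deviations from the group means. It was 0.121, 0.398 and 0.451 at E17.5, and under 0.1 for at least 1 pair at the other stages. The run was not removed from these deviations, and replicate 3 of both E17.5 groups was in run A. The check therefore cannot tell pairing from run at E17.5. The main fit used no pairs, and the replicate block, an alternative, used the numbers at every stage. The method was tested on simulated data. Alternatives were other background corrections and scalings, filters, probe rules and moderation, array weights, slide or replicate blocks, a 2-fold threshold and leaving out each array. Python 3.11.15 and matplotlib 3.10.9 drew the figures.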

Additional observations from a re-analysis of the deposited data

Results flagged for a closer look

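The measured change of Tbpl2 between genotypes differed between stages by a test of the difference itself. From E17.5 to P0 it shifted by -2.84 ± 0.55 (log2, limma, adjusted p = 0.00807): knockout minus wild type was -1.03 ± 0.39 at E17.5 and -3.87 ± 0.39 at P0. All 3 knockout arrays at P0 lay below all 3 wild type arrays, a separation found in that direction for 25.3% of all genes. Slide and genotype cannot be told apart at P0. The knockout means are near the background: the probe was not well above it on 2 of 3 knockout arrays at E17.5 and on 1 of 3 at P0, so the size of the shift is approximate (-1.87 with normexp, -3.23 to -2.53 when 1 array was left out). The probe passed the filter on dim probes only through wild type groups. Wild type at E17.5, with a mean of -4.54, was itself near the dimmest spots well above background on the E17.5 knockout arrays (-6.17 to -5.56). A much larger fall could not have been measured at that stage. The test of the shift therefore cannot tell a larger fall at P0 from a fall of the same size at both stages. With groups of 3 arrays, no array could be tested for standing apart from its group.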

How the results depend on the processing

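The fall of Tbpl2 at P0 kept its direction and its call in every fit that held the gene, from -2.10 (normexp and quantile) to -4.14 (without P0 knockout replicate 3). Many of these fits could not move the estimate of -3.87, only its error. Among them were those without an array of an earlier stage, without the run term, with trended moderation and with the replicate block. With the replicate block its adjusted p was 0.000766, and the block changed no other member's call; 1 member was called at P0, 0 at E15.5 and 0 at E17.5, where the block lowered all calls from 802 to 167. Requiring all spots of a probe above background, added after seeing the data, changed no direction and no call.

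Of the counts of members called, that at P0 was 0 with the stricter filter (5 members left) and 2 with the mean of a gene's probes. From E17.5 to P0 the wild type count of 2 became 1 with median scaling, the stricter filter or the 2-fold threshold. The knockout count of 1 became 3 with normexp or only the stages compared, 0 with the 2-fold threshold, and 2 with quantile normalization, median scaling, no run term, the stricter filter, averaged probes, trended moderation or array weights. The shift between genotypes from E17.5 to P0 lost its 1 call (0) with the stricter filter and with array weights. P0 knockout against E17.5 wild type gave 2 with the mean of probes and 0 with the 2-fold threshold. Leaving out 1 array gave 3 to 5 in wild type and 3 to 4 in knockout for E15.5 to E17.5, 1 to 3 in both for E17.5 to P0, and 0 to 1 and 1 to 1 for the shifts.

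Direction turned only where no call was made with the probe used for the gene, and the cause was not tested. With median scaling, which moves the median of all genes at P0 to 0.14, Figla at P0 was 0.091. For Taf4b in wild type from E17.5 to P0 the values were -0.081 (quantile), -0.067 (median), -0.074 (no run term), -0.56 (mean of probes, adjusted p = 0.0178), -0.078 (array weights) and -1.21 (other probe). In knockout they were -0.11 (no run term), -0.56 (mean of probes, adjusted p = 0.0193) and -1.18 (other probe). Its shift between genotypes from E17.5 to P0 was 0.032 (normexp), 0.12 (quantile), 0.12 (median), 0.24 (array weights) and 0.030 (other probe). The other Taf4b probe also gave 0.026 between genotypes at E15.5 and 0.11 in wild type from E15.5 to E17.5. The Lhx8 shift from E15.5 to E17.5 was -0.094 (mean of probes) and -0.27 (other probe), and Tbpl2 in P0 knockout against E17.5 wild type was -0.29 without the run term.

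Leaving out 1 array, or both replicates 3 of E17.5, gave ranges across 0 of -0.31 to 0.031 for Figla and -0.34 to 0.077 for Sohlh2 between genotypes at E17.5, -0.22 to 0.090 for Figla at P0 and -0.59 to 0.13 for Tbpl2 at E15.5. The shifts from E17.5 to P0 ranged from -0.097 to 0.26 (Figla), -0.33 to 0.66 (Nobox), -0.069 to 0.56 (Lhx8) and -0.21 to 0.25 (Taf4b), and the Lhx8 shift from E15.5 to E17.5 from -0.26 to 0.60. Sohlh2 in knockout from E15.5 to E17.5 ranged from -0.30 to 0.38, and Taf4b in wild type from -0.65 to 0.22. Taf4b from E17.5 to P0 ranged from -0.060 to 0.26 in wild type and from -0.090 to 0.20 in knockout, and Tbpl2 in P0 knockout against E17.5 wild type from -0.20 to 0.38. Without both replicates 3 of E17.5 that value was -0.023, the shift of Figla from E17.5 to P0 was -0.079 and Taf4b in wild type was -0.054. The signal over background limits the knockout levels of Tbpl2, and 3 arrays a group limit every value.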
